A study of Mus musculus with 15 samples.

Results

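AMP-activated protein kinase (AMPK) and the kinases that switch it on are encoded by 9 genes that were followed here through the histone marks of pancreatic islets. They comprise the 7 subunit genes Prkaa1, Prkaa2, Prkab1, Prkab2, Prkag1, Prkag2 and Prkag3 and the genes of 2 upstream kinases, Stk11 and Camkk2, and were chosen by name out of 22028 protein-coding genes. Of the 9 genes, 8 carried H3K27Ac at their start in every diet, none carried H3K27Me3 there in any diet, and Prkag3 carried neither mark.

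AMPK is a heterotrimer that restrains energy-consuming pathways and promotes energy-yielding ones when ATP runs low. The alpha subunit (Prkaa1, Prkaa2) is the catalytic kinase, the beta subunit (Prkab1, Prkab2) is the scaffold that holds the complex together and binds glycogen, and the gamma subunit (Prkag1, Prkag2, Prkag3) senses AMP and ATP. LKB1, encoded by Stk11, and CaMKK2, a kinase that responds to calcium, phosphorylate the activation loop of the alpha subunit, and in beta cells AMPK activity falls as glucose rises. H3K27Ac, acetylation of lysine 27 of histone H3, is found at active promoters and enhancers, whereas H3K27Me3, trimethylation of the same lysine, is laid down by Polycomb at silent ones.

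Islets came from male CBA mice fed a regular diet (RD), a high-fat diet (HFD) or the high-fat diet containing O304 (HFD-O304), a compound described by the study as a pan-AMPK activator. About 600 hand-picked and pooled islets were processed for ChIP-seq, with 2 replicates for each of 2 marks and 3 diets and 1 input sample per diet. Since the authors merged replicates ahead of peak calling, each mark and diet had 1 peak list. A difference between diets therefore comes without replicate error and no test of it was possible, and in whole islets fewer cells with a mark and less of the mark per cell cannot be told apart.

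The lists rested on 83773042 to 95218072 fragments for H3K27Ac and on 54166902 to 74870300 for H3K27Me3, and held 16314 to 21674 and 15438 to 22049 peaks. The level of a peak is given below as its enrichment, the mean pileup over the uniform background of its list. In the H3K27Ac lists the lowest enrichment called was 2.40 on RD, 2.26 on HFD and 2.37 on HFD-O304. In the H3K27Me3 lists it was 2.74, 3.10 and 2.97. Among markers of beta cells, 5 of 8 promoters held an H3K27Ac peak on RD, 6 on HFD and 5 on HFD-O304. Of 8 other islet endocrine markers, 2 held one on RD, 3 on HFD and 3 on HFD-O304. The hormone gene Ins1 had a peak on RD (2.86) and HFD (3.12) and none on HFD-O304. At the hormone genes Ins2, Iapp, Gcg, Sst and Ppy none was called in any list. The promoters of 7 acinar, 3 endothelial and 4 leukocyte markers had no H3K27Ac peak in any list. Of the muscle markers, Myh4 had none, whereas Ckm and Actn3 had a peak in each diet, which on RD also lay within 1 kb of the starts of their neighbours Klc3 and Zdhhc24.

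A gene was taken to carry a mark at its promoter when a peak reached within 1 kb of its annotated start. H3K27Ac met this at 8 of 9 AMPK genes on RD, HFD and HFD-O304 alike, where 44.0%, 49.8% and 49.3% of all protein-coding genes did. The same 8 genes were acetylated in all 3 diets, a pattern seen at 42.4% of all genes, and Prkag3 was among the 47.6% without a peak in any of them. With a −log10 q of at least 5 asked of the peak, H3K27Ac was left at 5 genes on RD, where Prkaa2, Prkab2 and Prkag2 fell short, at 8 on HFD and at 7 on HFD-O304. H3K27Me3 met the rule at 0 of 9 genes in each diet, against 6.68% of all genes on RD, 8.51% on HFD and 8.94% on HFD-O304, and 89.0% of all genes had no promoter H3K27Me3 in any diet.

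Sequence upstream of the starts differed among these genes. The 250 bases before the start of Prkaa1, the most CpG-rich of the 9, are shown beside those of Prkag3, the gene without marks, and beside 3 of the annotated starts of Prkag2, of which 2 were acetylated and 1 was not. All are written 5′ to 3′ on the coding strand of the GRCm38 reference, not of CBA mice, with CpG dinucleotides in capitals.
Prkaa1, chr15:5143611-5143860, plus strand: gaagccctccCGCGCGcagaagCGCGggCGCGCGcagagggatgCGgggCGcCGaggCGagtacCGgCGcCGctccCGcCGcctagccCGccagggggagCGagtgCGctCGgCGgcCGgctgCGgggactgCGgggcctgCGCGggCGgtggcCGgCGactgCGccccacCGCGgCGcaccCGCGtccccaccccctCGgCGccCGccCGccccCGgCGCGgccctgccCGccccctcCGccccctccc
Prkag3, chr1:74749222-74749471, minus strand: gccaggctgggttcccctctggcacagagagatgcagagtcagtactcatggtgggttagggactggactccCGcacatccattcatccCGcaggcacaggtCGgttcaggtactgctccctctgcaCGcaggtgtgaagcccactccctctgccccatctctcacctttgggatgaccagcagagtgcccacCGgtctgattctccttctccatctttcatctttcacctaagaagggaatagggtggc
Prkag2 gene start, chr5:25100643-25100892, minus strand: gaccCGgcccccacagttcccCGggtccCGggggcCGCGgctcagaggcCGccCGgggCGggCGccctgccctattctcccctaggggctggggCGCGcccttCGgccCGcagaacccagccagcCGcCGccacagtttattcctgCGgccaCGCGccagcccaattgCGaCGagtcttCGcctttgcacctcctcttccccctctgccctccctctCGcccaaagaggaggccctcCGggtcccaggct
Prkag2 internal start with H3K27Ac, chr5:24908978-24909227, minus strand: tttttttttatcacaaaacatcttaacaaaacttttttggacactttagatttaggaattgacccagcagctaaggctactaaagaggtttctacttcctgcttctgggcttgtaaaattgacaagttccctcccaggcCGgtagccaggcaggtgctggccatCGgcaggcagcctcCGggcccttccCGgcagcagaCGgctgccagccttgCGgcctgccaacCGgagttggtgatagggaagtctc
Prkag2 internal start without H3K27Ac, chr5:24995754-24996003, minus strand: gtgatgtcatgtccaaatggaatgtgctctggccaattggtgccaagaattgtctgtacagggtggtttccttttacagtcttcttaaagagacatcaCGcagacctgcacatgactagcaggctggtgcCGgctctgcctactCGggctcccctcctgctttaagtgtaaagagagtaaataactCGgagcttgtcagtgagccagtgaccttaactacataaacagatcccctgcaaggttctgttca

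The Prkaa1 stretch held 45 CpG and that of Prkag3 held 5. The other gene starts lay between them, with 32 CpG at Camkk2, 27 at Prkab1, 26 at Stk11, 24 at Prkaa2, 23 at Prkag2, 18 at Prkab2 and 10 at Prkag1. Over all genes the median was 16 CpG for 9330 starts acetylated in all diets and 3 for 10404 starts acetylated in none, with 21931 starts read. Of the internal starts of Prkag2 shown, the acetylated stretch held 7 CpG and the unacetylated one 4. The unacetylated internal starts not shown held 3 or 4.

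Of 5 motifs searched on both strands of these stretches, GGGCGG, the GC box, was found at Prkaa1 (5 matches), Prkab2 (4 matches), Prkaa2 and the Prkag2 gene start (2 matches each), and at Prkag1 and Camkk2 (1 match each). It occurred before 39.0% of all starts. CCAAT was found at Stk11 (3 matches) and at Prkag1 and the Prkag2 gene start (1 match each), against 36.0% of all starts. The unacetylated Prkag2 start shown held 2 matches. CACGTG, TGACGTCA and TATAAA were found at none of the 9 gene starts, and occurred before 6.53%, 1.97% and 11.5% of all starts. An unacetylated start 211 kb into Prkag2, not shown, held 1 CCAAT and 1 TATAAA. A match describes these letters only.

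**Figure D1:**
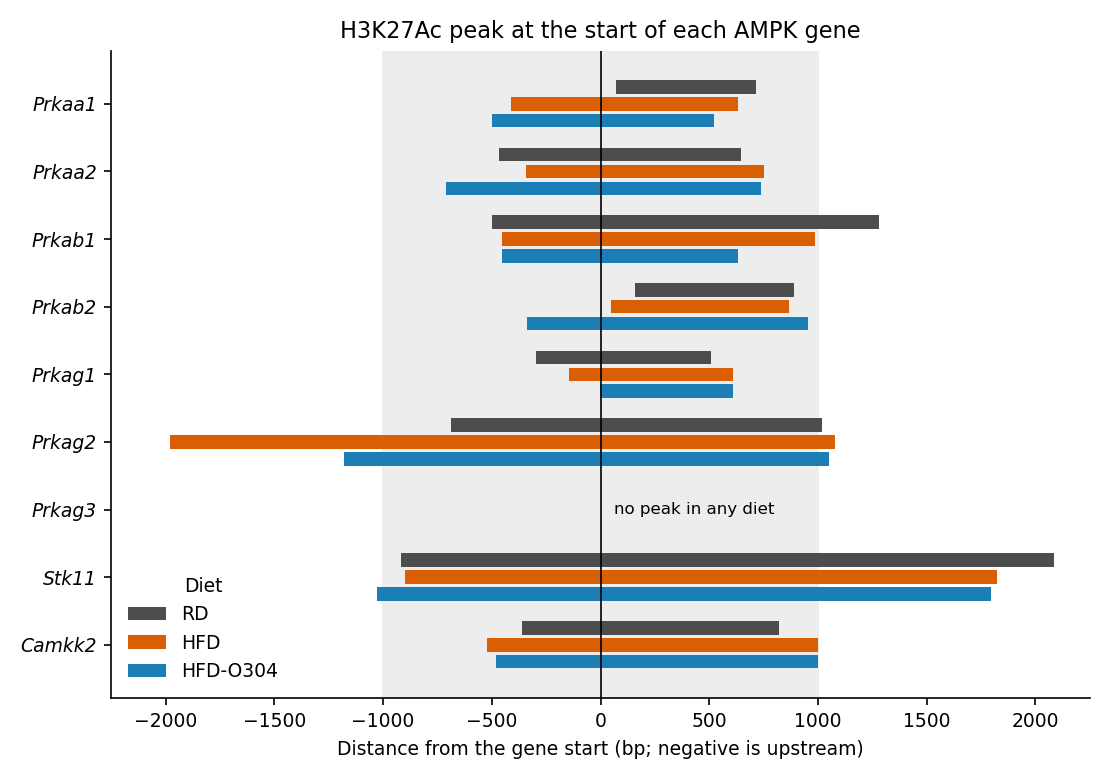
H3K27Ac peak at the start of each AMPK gene, drawn from its upstream to its downstream edge in bp from the annotated start (vertical line), with 1 bar per diet; grey marks the 1 kb on either side of the start. The 3 Stk11 bars are 2725 to 3003 bp wide, the Prkag2 bar is widest on HFD at 3061 bp, the RD bar of Prkaa1 and the RD and HFD bars of Prkab2 begin downstream of the start, and Prkag3 has none.

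The catalytic subunits were examined first. Prkaa1 (chr15:5143861-5181899, plus strand), which encodes alpha1, had a promoter enrichment of 3.88 on RD (95% interval 3.20 to 4.67), 4.15 on HFD (3.62 to 4.73) and 3.36 on HFD-O304 (2.86 to 3.94). These intervals, like those below, are exact Poisson intervals on the fragments estimated to lie in the peak, here 112 to 221, and cover counting error only. They overlapped among the diets. The HFD value was above those of 87.9% of the promoters with a peak in its list and the HFD-O304 value above 53.6%. On RD the peak began 71 bp downstream of the start and was 644 bp wide, whereas on HFD and HFD-O304 it covered the start and was 1047 and 1021 bp wide.

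Within Prkaa1, H3K27Ac peaks of each diet also lay in a stretch about 16.3 kb from the start, joined over the diets and mostly intronic. An exon in it (chr15:5160603-5160744) was inside a peak on RD and HFD, and between the 2 peaks of HFD-O304. The stretch was called as 2 peaks on RD, with an enrichment of 2.90 and 2.49, and as 1 peak of 3814 bp and 2.49 on HFD. On HFD-O304 its 2 peaks had 2.76 and 2.69. The distal end of this stretch overlapped an H3K27Me3 peak on RD (enrichment 3.41, 429 bp) and on HFD-O304 (3.23, 1419 bp). No H3K27Me3 peak was called there on HFD, the list with the highest calling limit for this mark, 3.10. The bases shared by both marks numbered 429 on RD and 1290 on HFD-O304, none of them repeat-masked. A further H3K27Ac peak in the 20 kb beyond the gene lay at the promoter of Ttc33, at 3.04, 3.26 and 3.01.

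Prkaa2 (chr4:105029874-105109890, minus strand), which encodes alpha2, had a promoter enrichment of 2.73 on RD (2.29 to 3.23), 3.12 on HFD (2.67 to 3.62) and 3.52 on HFD-O304 (3.08 to 4.00). The RD value lay near the calling limit, above 15.4% of the acetylated promoters of its list, and the HFD-O304 value lay above 62.5%. The peak covered the start in each diet and was 1116, 1096 and 1453 bp wide on RD, HFD and HFD-O304. In an intron 46.1 kb from the start, H3K27Me3 was called in each diet, with an enrichment of 4.59 on RD, 4.33 on HFD and 3.89 on HFD-O304. Every base of these peaks was repeat-masked, and an H3K27Ac peak of 418 bp and 2.28, just above the HFD calling limit, overlapped it on HFD. The part of repeated sequence in these values was not tested.

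The scaffold subunits differed in how far their promoter peaks reached. Prkab1 (chr5:116013586-116024508, minus strand), encoding beta1, had an enrichment of 3.36 on RD (2.97 to 3.79), 3.31 on HFD (2.91 to 3.76) and 3.65 on HFD-O304 (3.14 to 4.23). The 3 levels lay within each other's intervals, while the width fell from 1779 bp on RD to 1443 bp on HFD and 1086 bp on HFD-O304. Its upstream edge moved by little, 497 bp before the start on RD and 455 bp in the other diets, and the difference lay inside the gene, where the peak reached 1281, 987 and 630 bp. No other peak of either mark was called within 20 kb of Prkab1.

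Prkab2 (chr3:97658193-97673812, plus strand), encoding beta2, had an enrichment of 2.88 on RD (2.33 to 3.52), 3.46 on HFD (2.92 to 4.07) and 3.10 on HFD-O304 (2.66 to 3.58). Its peak was 735 bp wide on RD, 820 bp on HFD and 1294 bp on HFD-O304, and covered the start only on HFD-O304, since it began 157 bp downstream of it on RD and 47 bp downstream on HFD. At an annotated internal start 8.34 kb into the gene, a peak of 375 bp and 2.50 was called on HFD alone. On RD alone a peak of 1364 bp and 2.48 was called 23.4 kb from the start, beyond the end of the gene. Both lay close to the calling limits.

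**Figure D2:**
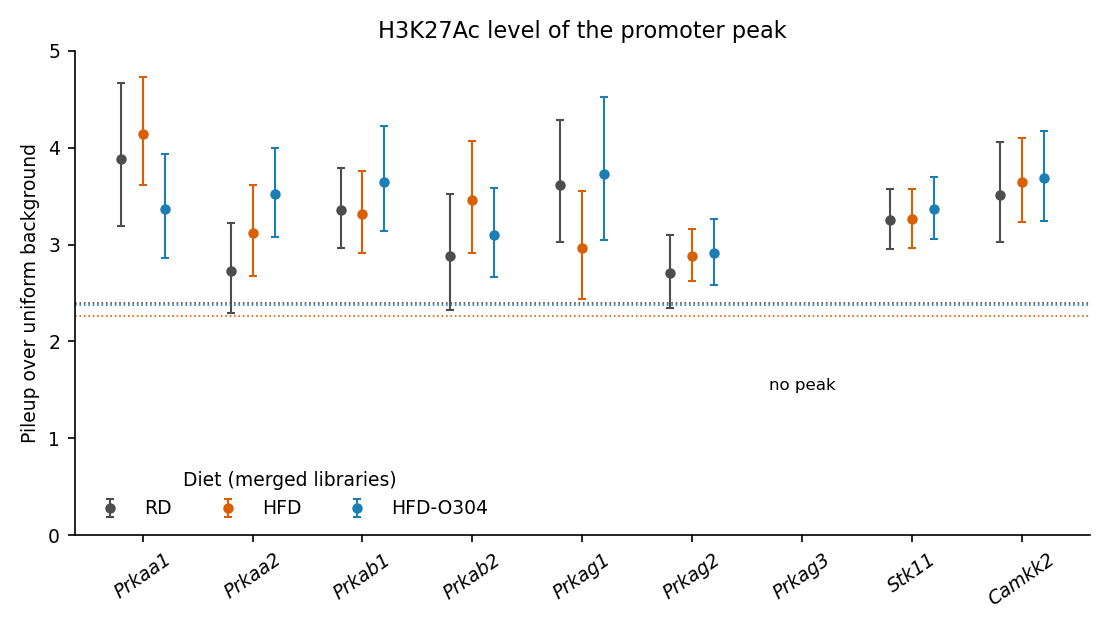
Enrichment (mean pileup over uniform background) of the H3K27Ac promoter peak of each AMPK gene by diet; points are the single values of merged libraries, bars are 95% Poisson intervals for counting error, and dotted lines mark the lowest enrichment called in each list (2.26 to 2.40). Values run from 2.71 for Prkag2 on RD to 4.15 for Prkaa1 on HFD, and the bars of each gene overlap among the diets.

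Of the gamma genes, Prkag1 (chr15:98812797-98831521, minus strand), encoding gamma1, had a promoter enrichment of 3.61 on RD (3.02 to 4.29), 2.96 on HFD (2.44 to 3.56) and 3.73 on HFD-O304 (3.04 to 4.52). The HFD value was the lowest, above 32.1% of the acetylated promoters of its list, against 76.7% on RD and 72.7% on HFD-O304. Its peaks were the narrowest of the 8 genes on HFD and HFD-O304, at 751 and 611 bp, and were 808 bp on RD, and on HFD-O304 the peak reached only 3 bp upstream of the start. No other H3K27Ac peak lay within 20 kb of the gene.

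Beyond the 3′ end of Prkag1 lay 2 of the 5 H3K27Me3 peaks found at these loci on RD, 4 of 6 on HFD and 5 of 7 on HFD-O304. They covered 1956, 8544 and 7867 bp. The widest spanned the promoter of Wnt1, a secreted growth factor of development, on HFD (4806 bp, enrichment 3.83) and on HFD-O304 (3873 bp, 3.83), and on RD it was 1576 bp wide at 3.27 and lay inside Wnt1 short of its promoter window. Peaks on HFD (2112 bp, 3.54) and HFD-O304 (2468 bp, 3.66) reached within 1 kb of the start of the neighbouring Ddn without covering it. On RD no peak came within 1 kb of it, and a peak of 380 bp and 2.88 lay inside Ddn. All these peaks began at least 20 kb from the Prkag1 start, and none lay inside Prkag1.

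**Figure D3:**
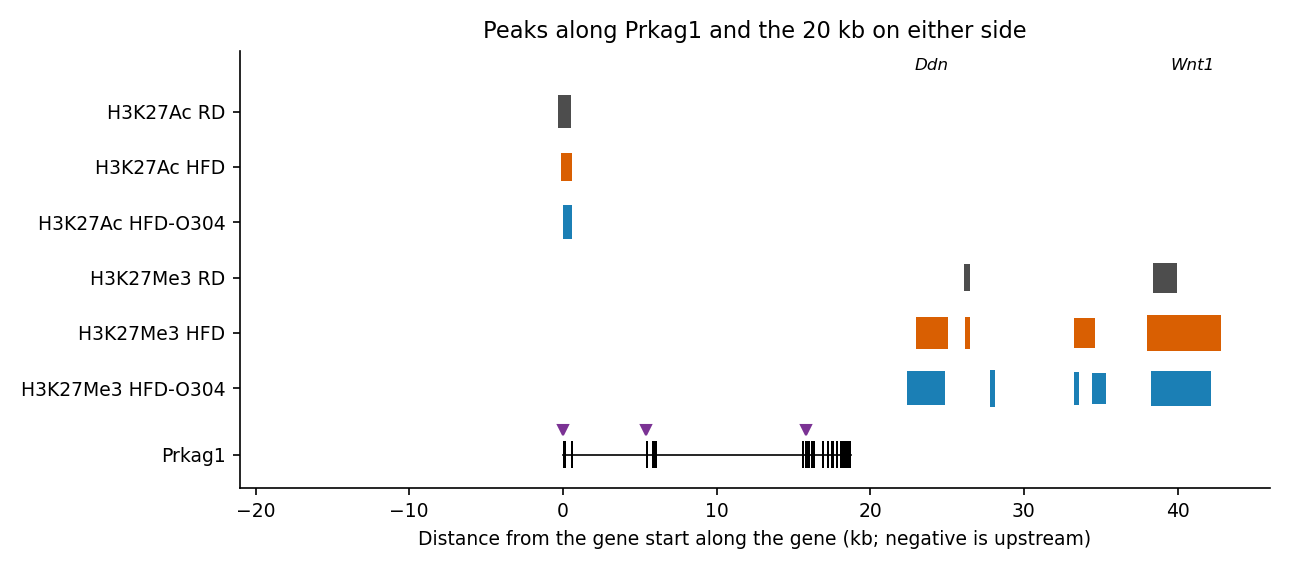
Peaks along Prkag1 and the 20 kb on either side, by kb from the gene start; bar height is proportional to enrichment, narrow peaks are drawn at a minimum width, black boxes are exons and triangles annotated starts. H3K27Ac sits at the gene start in each diet, and H3K27Me3 (2 peaks on RD, 4 on HFD, 5 on HFD-O304) lies beyond the 3′ end at Ddn and Wnt1.

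Prkag2 (chr5:24862744-25100642, minus strand), encoding gamma2, is the longest of these genes at 238 kb and has 10 annotated transcripts. At the gene start its enrichment was 2.71 on RD (2.35 to 3.10), 2.88 on HFD (2.62 to 3.16) and 2.91 on HFD-O304 (2.59 to 3.26). These were low levels over wide stretches, above 13.7% to 27.3% of the acetylated promoters by enrichment and above 84.8% to 95.8% by width. The peak was 1710 bp wide on RD, 3061 bp on HFD and 2232 bp on HFD-O304, and the difference lay upstream, where it reached 690, 1981 and 1182 bp.

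The 5 starts clustered 192 kb into Prkag2 were acetylated in each diet as well. Enrichment there was 3.26 on RD (2.82 to 3.74), 3.32 on HFD (2.90 to 3.79) and 3.40 on HFD-O304 (2.93 to 3.91), higher than at the gene start in each list, with intervals that overlapped those of the gene start. The starts 105, 198, 211 and 229 kb into the gene had no H3K27Ac peak in any diet. Thus 2 of the 6 separate start positions of Prkag2 were acetylated, the same 2 in the 3 diets.

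Over the whole Prkag2 locus 7 H3K27Ac peaks were called on RD, 9 on HFD and 11 on HFD-O304, covering 7586, 13559 and 14279 bp, in lists of 16314, 21674 and 20305 peaks. They include the acetylated starts and the promoter of the neighbouring Rheb, a GTPase that activates mTORC1 (enrichment 4.08 on RD, 3.92 on HFD and 3.97 on HFD-O304). Per 100 kb this came to 2.52, 3.24 and 3.96 peaks, fewer than the 10.9, 9.11 and 9.11 of the shorter Stk11 locus. Joined over the diets, the peaks inside the gene and away from its starts formed 12 regions. Of these, 1, about 70.4 kb from the start, was present in all diets, 3 in 2 diets and 8 in 1 diet. Of 6577 such regions inside protein-coding genes, 23.1% were called in all diets and 54.0% in 1 diet. The shared region had an enrichment of 2.63 on RD, 2.55 on HFD and 2.84 on HFD-O304 in its main peak. Only its HFD peak overlapped an exon. The regions 33.2 and 127 kb from the start were called on HFD and HFD-O304 and not on RD, at 2.37 and 2.56 on HFD and 2.73 and 2.42 on HFD-O304. These values lie within the range in which a slightly weaker stretch would not have been called. H3K27Me3 was called on RD at 195 kb (357 bp, 2.98) and on HFD at 17.5 kb (305 bp, 3.12), each near its calling limit.

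**Figure D4:**
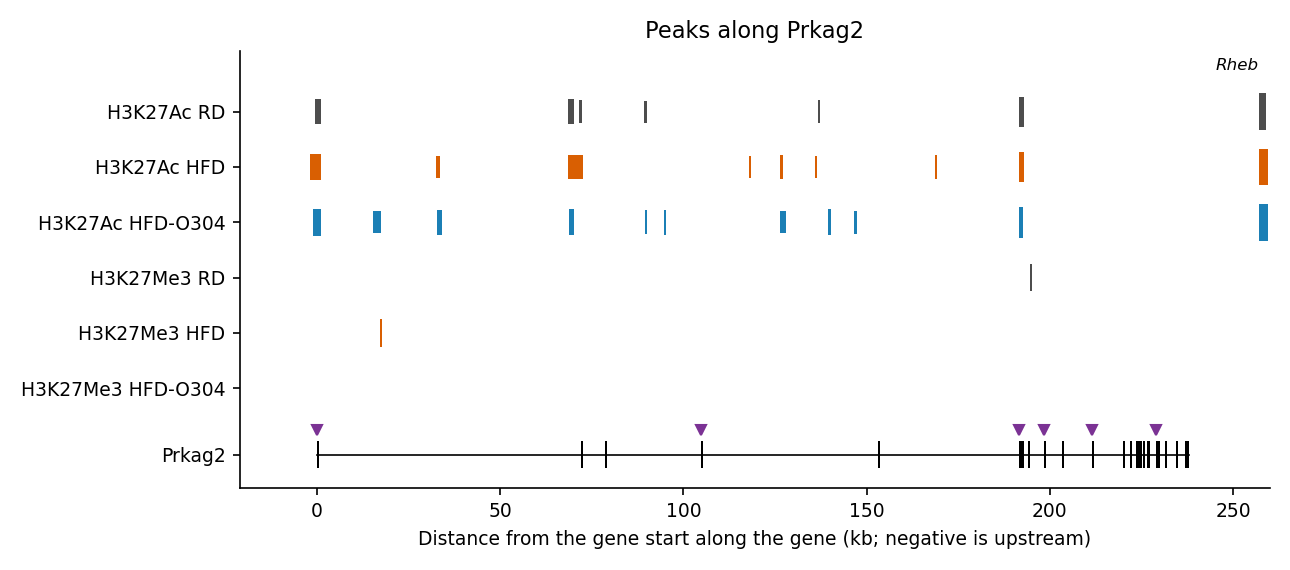
Peaks along Prkag2 by kb from the gene start; bar height is proportional to enrichment, narrow peaks are drawn at a minimum width, black boxes are exons and triangles the 6 separate start positions. H3K27Ac recurs in each diet at the gene start, about 70.4 kb and 192 kb into the gene and at the Rheb promoter, and most other intronic peaks appear in 1 or 2 diets.

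Prkag3 (chr1:74738922-74749221, minus strand) encodes gamma3, the subunit known for its expression in skeletal muscle. No peak of either mark was called in the gene or within 20 kb of it in any diet, as for 3621 (16.4%) of all protein-coding genes. The nearest H3K27Ac peak was 67.9 kb upstream of its start on RD, and 35.4 kb and 35.3 kb downstream on HFD and HFD-O304, at the promoter of Cyp27a1. The nearest H3K27Me3 peak lay 21.5 to 21.7 kb upstream in the 3 diets, at the promoter of Wnt6, with an enrichment of 3.14 on RD, 3.66 on HFD and 3.38 on HFD-O304. These neighbours were named after their values were seen. The muscle-restricted subunit thus differed in marks from the other gamma genes without carrying H3K27Me3 itself.

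The upstream kinases had the steadiest promoter peaks. Stk11 (chr10:80115803-80130682, plus strand), which encodes LKB1, had an enrichment of 3.25 on RD (2.96 to 3.57), 3.26 on HFD (2.97 to 3.57) and 3.37 on HFD-O304 (3.06 to 3.70). Its peaks were 3003, 2725 and 2824 bp wide, above 94.3% to 97.4% of the acetylated promoters, and reached from about 1 kb upstream to 2086, 1825 and 1794 bp downstream of the start. The highest enrichment exceeded the lowest 1.03-fold and the widest peak the narrowest 1.10-fold, the smallest spreads among the 8 genes by either measure. The Stk11 peaks held 431 to 452 estimated fragments and those of Prkag1 103 to 131, and counting error is larger where fragments are fewer. Its part in this ranking was not tested.

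The Stk11 locus was dense in H3K27Ac, with 6 peaks on RD and 5 in each of the other diets. A peak 13.4 kb upstream, inside Sbno2, had an enrichment of 3.24 on RD (2.60 to 4.00), 3.42 on HFD (2.97 to 3.92) and 4.03 on HFD-O304 (3.30 to 4.88), above the Stk11 promoter on HFD and HFD-O304. Another lay at the 3′ end of the gene at 2.56, 2.47 and 2.59. The remaining peaks covered the promoters of Atp5d and Cbarp, as separate peaks on RD (3.05 and 3.35) and as 1 on HFD and HFD-O304 (3.33 and 3.44), and of Midn (3.46, 3.60 and 3.57). Those of HFD and HFD-O304 over Atp5d and Cbarp were 6366 and 6678 bp wide, so the lower number of peaks came from joining. H3K27Me3 was not called at the locus in any diet.

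Camkk2 (chr5:122731170-122779409, minus strand), which encodes the calcium-responsive AMPK kinase, had a promoter enrichment of 3.52 on RD (3.03 to 4.06), 3.65 on HFD (3.24 to 4.10) and 3.68 on HFD-O304 (3.24 to 4.17). These lay above 70.6% to 72.0% of the acetylated promoters in the 3 lists. A second peak 20.1 to 20.4 kb upstream, inside Anapc5, was present in each diet at 2.56 (1.98 to 3.26), 2.72 (2.36 to 3.13) and 2.63 (2.25 to 3.07). It was 572 bp wide on RD, 1450 bp on HFD and 1373 bp on HFD-O304. The 3 annotated starts inside Camkk2, 15.5, 25.6 and 35.3 kb from the gene start, had no peak of either mark. Sbno2 and Anapc5 were named because they contain these peaks, after the values were seen.

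Diets were then compared by the log2 ratio of promoter enrichment at the 8 acetylated genes. For HFD against RD the ratios ran from -0.29 to 0.26 with a median of 0.07, which equals the median of 0.07 over 9508 genes acetylated in both. No AMPK gene was more than 25% higher or more than 20% lower, as 6.83% and 0.747% of all genes were. For HFD-O304 against HFD the ratios ran from -0.30 to 0.33 with a median of 0.03, beside 0.02 over 10338 genes. Here 1 gene, Prkag1, was more than 25% higher and 0 were more than 20% lower, against 2.00% and 1.24% of all genes. For HFD-O304 against RD the ratios ran from -0.21 to 0.37 with a median of 0.09, beside 0.08 over 9456 genes, and 1 gene, Prkaa2, passed the upper limit and 0 the lower, against 7.90% and 0.719%. In each pair 4 of the 8 genes lay above the median of all genes. The comparisons share lists in pairs, so their ratios are not independent of each other.

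The 2 ratios past a limit each compare 2 lists without replicates. For Prkag1 with HFD-O304 against HFD, 3.73 against 2.96, the log2 ratio was 0.33 (-0.07 to 0.73), above those of 98.3% of all genes. It was 0.31 with the authors' fold enrichment and 0.035 when enrichment was summed over the width of the peak, both short of 25%. Against RD, HFD gave -0.29 (-0.66 to 0.09), above 1.31% of all genes, and HFD-O304 0.04 (-0.34 to 0.43) for the same gene. For Prkaa2 with HFD-O304 against RD, 3.52 against 2.73, the log2 ratio was 0.37 (0.05 to 0.68), above those of 95.1% of all genes. It was the only 1 of 24 ratios whose counting interval left out 0. Scaling to the median of all promoters gave 0.28, short of 25%, and summing over the width gave 0.75.

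At Prkaa1 the HFD-O304 ratios were among the lower ones of all genes. HFD-O304 against HFD was -0.30 (-0.61 to 0.0012) and HFD-O304 against RD was -0.21 (-0.57 to 0.16), which lay above those of 1.76% and 3.49% of all genes. The HFD against RD ratio was 0.10 (-0.24 to 0.44). With enrichment summed over the peak the HFD-O304 against RD value turned to 0.46, since the RD peak was the narrower. Among the ratios that left their counting interval on this measure, the sign also turned for HFD-O304 against RD at Prkab1 (0.12 to -0.59) and Prkag1 (0.04 to -0.36), and of HFD-O304 against HFD at Prkab1 (0.14 to -0.27), Prkab2 (-0.16 to 0.50) and Prkag2 (0.01 to -0.44). In these ratios level and width went opposite ways, which a turned sign requires, and they were picked for that turn. Other ratios left their interval and kept their sign. For HFD-O304 against RD these included Prkaa2 (0.37 to 0.75) and Prkab2 (0.10 to 0.92). The Stk11 ratios were 0.00, 0.05 and 0.05 and those of Camkk2 0.05, 0.01 and 0.07, in the order HFD against RD, HFD-O304 against HFD and HFD-O304 against RD.

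**Figure D5:**
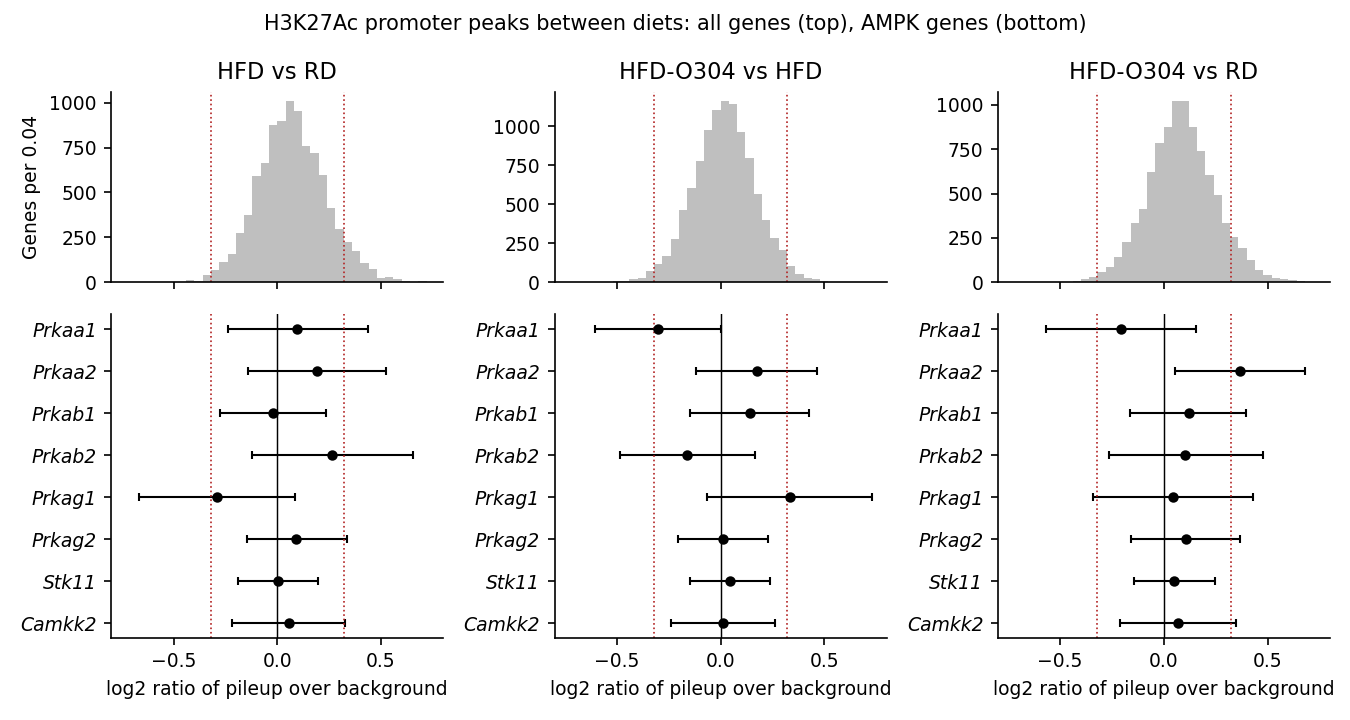
Log2 ratio of H3K27Ac promoter enrichment for each pair of diets; the upper row counts all genes acetylated in both diets per bin of 0.04, and the lower row gives each AMPK gene with its 95% counting interval. Dotted lines mark 25% higher and 20% lower. The AMPK genes lie inside the wider range of all genes, with medians of 0.07, 0.03 and 0.09. Only Prkag1 (HFD-O304 against HFD) and Prkaa2 (HFD-O304 against RD) lie past a dotted line. Outside the bins drawn are 16 genes for HFD against RD and 16 for HFD-O304 against RD.

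Peaks over the whole loci, from 20 kb before to 20 kb after each gene, numbered 24 on RD, 25 on HFD and 26 on HFD-O304 for H3K27Ac. The lists held 16314, 21674 and 20305 peaks, and with lists of equal size the numbers were 24, 19 and 23. Each list had a peak at 8 of 9 loci, where 63.2%, 69.3% and 67.9% of all protein-coding genes had one. For H3K27Me3 there were 5, 6 and 7 peaks, at 4 loci on RD and 3 in each of the other lists, where 30%, 30.6% and 36.5% of all genes had one. Per 100 kb this was 2.88, 3.0 and 3.12 H3K27Ac peaks, against 1.36, 1.72 and 1.67 over all genes. H3K27Me3 gave 0.599, 0.719 and 0.839 per 100 kb, against 0.60, 0.633 and 0.838.

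The H3K27Ac peaks formed 32 regions over the 3 diets, of which 18 were present in all of them. A further 3 regions were present in 2 diets and 11 in 1 diet, 8 of these 11 in Prkag2. Of all 26255 regions in the H3K27Ac lists, 50.5% were called in all diets and 31.7% in 1 diet. Within 1 kb of an annotated start of a protein-coding gene lay 16 of the 32 regions, among them the 8 at the genes' own starts, and 15 of these were present in all diets, where 75.9% of all such regions were. Of the 16 away from starts 3 were present in all diets and 10 in 1 diet, where 28.1% and 49.4% of all such regions were. The 11 peaks called in 1 diet had an enrichment of 2.28 to 2.82 and a −log10 q of 2.15 to 4.35, close to the limit, and those of regions in 2 diets had 2.37 to 2.73, while the peaks of regions in all diets ran from 2.47 to 4.15. The peaks called in 1 or 2 diets were thus weak and mostly intronic, and some regions present in all diets were as weak. Only 1 region carried both marks in each list, at Prkaa1 on RD and HFD-O304 and at Prkaa2 on HFD.

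The wider AMPK pathway was described by a list of 48 genes in 5 groups, all of which were matched. H3K27Ac was called at 41 of their promoters on RD, 42 on HFD and 41 on HFD-O304, and at 40 in all diets, beside the shares of all genes given above. Among LKB1 partners and other upstream kinases 5 of 6 were acetylated in each diet, and Strada, the pseudokinase partner of LKB1, in none. All 12 AMPK-related kinases were acetylated on RD and HFD and 11 on HFD-O304, where Nuak2 had no peak after 2.66 on RD and 3.07 on HFD. Of the regulators, 9 of 10 were acetylated in each diet and Ak1, adenylate kinase 1, in none.

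Direct substrates, the largest group, had the most promoters without H3K27Ac in any diet, 4 of 17, where 47.6% of all genes had none. Acetylation was called at 12 of 17 on RD and at 13 on HFD and HFD-O304, and in no diet at Acacb, Tbc1d1, Pfkfb2 and Mlxipl. Acacb encodes the mitochondrial acetyl-CoA carboxylase, and Mlxipl the glucose-responsive factor ChREBP. Mlxipl carried H3K27Me3 in each diet instead, at 2.74, 3.31 and 3.36. Gys1, glycogen synthase, had no H3K27Ac on RD and 2.68 and 2.90 on HFD and HFD-O304. Pfkfb3 carried H3K27Me3 on RD (2.96) beside H3K27Ac in each diet. The 3 calmodulin genes, which convey calcium to Camkk2, were acetylated in each diet.

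For HFD against RD, 4 of 41 pathway genes were more than 25% higher and 1 more than 20% lower. Over all genes these shares were 6.83% and 0.747%. For HFD-O304 against HFD the counts were 1 and 1 of 41, beside 2.00% and 1.24% of all genes. For HFD-O304 against RD they were 4 and 1 of 40, beside 7.90% and 0.719%. The median log2 ratios were 0.11, 0.04 and 0.16, beside 0.07, 0.02 and 0.08 over all genes. The list holds genes picked for their role, and its values are a description.

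The genes whose promoter marks were most like those of each member were found by the distance over the 6 lists in log2(1 + enrichment). The nearest were Klhl21 to Prkaa1 (distance 0.0159), Pgd to Prkaa2 (0.0135), Zdhhc2 to Prkab1 (0.0136), Tbc1d31 to Prkab2 (0.0149), Ugcg to Prkag2 (0.0123), Ltn1 to Stk11 (0.0140) and Myo10 to Camkk2 (0.0131). For Prkag1 they were Trak2 and Stradb, at an equal distance of 0.0211. Stradb encodes a pseudokinase that partners LKB1. Between 781 and 3322 genes lay within 0.2 of each member, so such likeness was common. Second nearest were Ppp1r3e to Prkaa1, Vps13d to Prkaa2, Csnk2b to Prkab1, Szrd1 to Prkab2, Arhgdia to Prkag2, Ndufb6 to Stk11 and Pik3r4 to Camkk2.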

How the data were processed

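The 15 samples comprised 12 ChIP samples, 2 replicates for each of 2 marks in 3 diets, and 3 inputs, which were not used here. The authors mapped paired-end reads to GRCm38 with Bowtie2, merged replicates and ran MACS 2.1.2 in its broad mode. The q-value cutoff was 0.01 per the file headers, which were followed although the study's methods give a more lenient one, and the lowest −log10 q in any list was 2.06. Duplicates were removed, with a genome size of 1.87e+09 and no control. For each peak the authors deposited the mean pileup, a coverage signal in fragments per base, the −log10 p (not used) and −log10 q against a uniform background, and the fold enrichment, a ratio with 1 added to both terms.

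Enrichment was computed here as pileup over background (kept fragments times fragment size over genome size). Estimated fragments (pileup times width over fragment size) gave exact Poisson intervals, and for ratios exact binomial ones, at 95%. Means are over each diet's own peak width. The promoter peak was the one of highest −log10 q overlapping, by at least 1 bp, a window of 1000 bp either side of the GENCODE vM21 gene start. Loci took 20 kb either side. Repeats were read as soft-masked bases of GRCm38. Overlaps were tested on simulated data. With 1 list per group no test between diets was made. Python 3.11.15, numpy 2.4.6, pandas 2.3.3 and scipy 1.17.1 were used.

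The members and lists were chosen with earlier results of these data known. Named in the text were the 9 genes, neighbours whose promoter a peak at a locus overlapped, pathway genes acetylated in no diet or in some diets only, with Pfkfb3 added after its values were seen, and the 2 genes nearest to each member. Cell type marker lists other than those in the text are not reported here.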

Additional observations from a re-analysis of the deposited data

How the results depend on the processing

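No paired analysis was possible because peaks were called on merged replicates, and leaving out a replicate was likewise not possible. Of 114 recomputed counts and medians, 97 kept their size, within 1.5 times for counts and within the counting interval for medians. With a −log10 q of at least 5, promoter H3K27Ac on RD was called at 5 of 9 genes, locus peaks of H3K27Ac fell to 12 on RD, 14 on HFD and 13 on HFD-O304, and those of H3K27Me3 to 2, 1 and 3. The common fold cutoff left 3 H3K27Me3 peaks on RD. A flank of 5 kb left 3 H3K27Me3 peaks in each diet. A flank of 50 kb gave 38 H3K27Ac peaks on HFD and 44 on HFD-O304, and for H3K27Me3 11 on RD, 12 on HFD and 14 on HFD-O304. The windows and cutoffs change these counts by their construction. The median log2 ratio of HFD-O304 against RD rose to 0.42 with enrichment summed over the peak. Counts of H3K27Me3 promoters stayed at 0 under the alternatives run. Only the window of 2500 bp and the use of any annotated transcript start could have raised them. The other alternatives can only remove peaks, and the 97 include these fixed counts of 0. Of 137 recomputed ratios of single genes 15 left their counting interval, all on summing over the width.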
